A study of Mus musculus with 19 samples.

Results

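Photoreceptor transcripts are the messenger RNAs of rods and cones, the light-sensing neurons of the outer retina. They were followed here through the RNA of sorted retinal microglia, which are not photoreceptors, though some of the genes are also used by other cells. The members were 37 genes of the phototransduction cascade, the outer segment and the photoreceptor transcription factors, taken by gene symbol. Of these, 36 had a row in a table of 27299 genes, and *Guca1a* had no row of that symbol in the table used here. By their usual cell type, 13 were taken as rod genes, 11 as genes of both rods and cones, 9 as cone genes and 3 (*Gnb1*, *Unc119* and *Nr1d1*) as genes that many cell types use.

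The samples were microglia of the central retina of unlasered controls and of lasered eyes at day 3 (CNV d3), with 6 samples in each group. In CNV d3, 6 argon laser burns per eye had broken the barrier behind the retina to start choroidal neovascularization, the growth of vessels from the choroid. Both groups had the same background and sort. The mice were 8 weeks old, and the labels name C57BL/6J while the methods name Cx3cr1 GFP/+ mice, in which 1 copy of the fractalkine receptor gene is replaced by a green fluorescent reporter. Viable cells were sorted for CD45 (low, in the methods), CD11b and CX3CR1 and against Ly6C and Ly6G, so the gate held no photoreceptor marker in either direction. The 6 control samples and CNV d3 sample 4 each had 2 entries, whose reads the authors had merged, and each was taken as 1 sample. The other CNV d3 samples had 1 entry each, so the number of entries goes almost wholly with the group. Its part in a difference between the groups cannot be told apart from that of the laser. The labels name no separate mice for the samples, so p-values measure only the spread between these samples.

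Rods and cones turn light into a fall of cyclic GMP. An excited opsin activates the G protein transducin, transducin releases the brake on a phosphodiesterase, cyclic GMP falls, and the cyclic nucleotide-gated channel of the outer segment closes. Arrestin and calcium sensors end the response, and guanylate cyclase restores the cyclic GMP. Photoreceptors shed the tips of their outer segments daily, mostly to the pigment epithelium, and microglia enter the outer retina and take up photoreceptor debris after injury. The values do not show whether photoreceptor RNA lay inside, on or beside the sorted cells. In bulk samples, fewer cells of a type and less RNA per cell cannot be told apart either.

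The value of a gene in a sample is its read count divided by a size factor for sequencing depth, called the normalized count. Between 10963178 and 22335233 reads lay on genes in the control samples and between 23532260 and 29523018 in CNV d3, so 1 read was worth 0.739 to 1.99 normalized counts. Reads were found on 15076 to 17224 genes in control and on 18276 to 19116 in CNV d3. Microglial markers were high: none of the 12 genes of a microglia list (among them *P2ry12* and *Tmem119*) had a median under 10, with summed normalized counts of 1459970 to 1625790 in control and 791411 to 1182820 in CNV d3. A floor of 3 reads was taken as the smallest signal a sample could show, and floors and intervals cover counting error only, because PCR amplified the cDNA and no molecular identifiers marked its copies.

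Rod transcripts were found in all 12 samples, and single samples differed far more than the groups. Their summed normalized counts over the 13 rod genes were 452, 1402, 5186, 485, 488 and 1092 in control samples 1 to 6 and 427, 859, 2815, 8106, 2050 and 7687 in CNV d3 samples 1 to 6. Control 3 stood above all other control samples and above 4 of the 6 CNV d3 samples, CNV d3 4 and 6 were the highest of all, and CNV d3 1 was the lowest of all. The ratio of the highest to the lowest sample was 11.5 in control and 19.0 in CNV d3, and the groups overlapped over most of their range. As a share of the reads on genes, rod genes made up 0.00210% (95% Wilson interval 0.00191 to 0.00231) in control 1 and 0.0235% (0.0228 to 0.0241) in control 3. In CNV d3, the share went from 0.00196% (0.00180 to 0.00212) in sample 1 to 0.0380% (0.0372 to 0.0388) in sample 4. Counting error was thus far smaller than the spread between samples of a group.

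**Figure D1:**
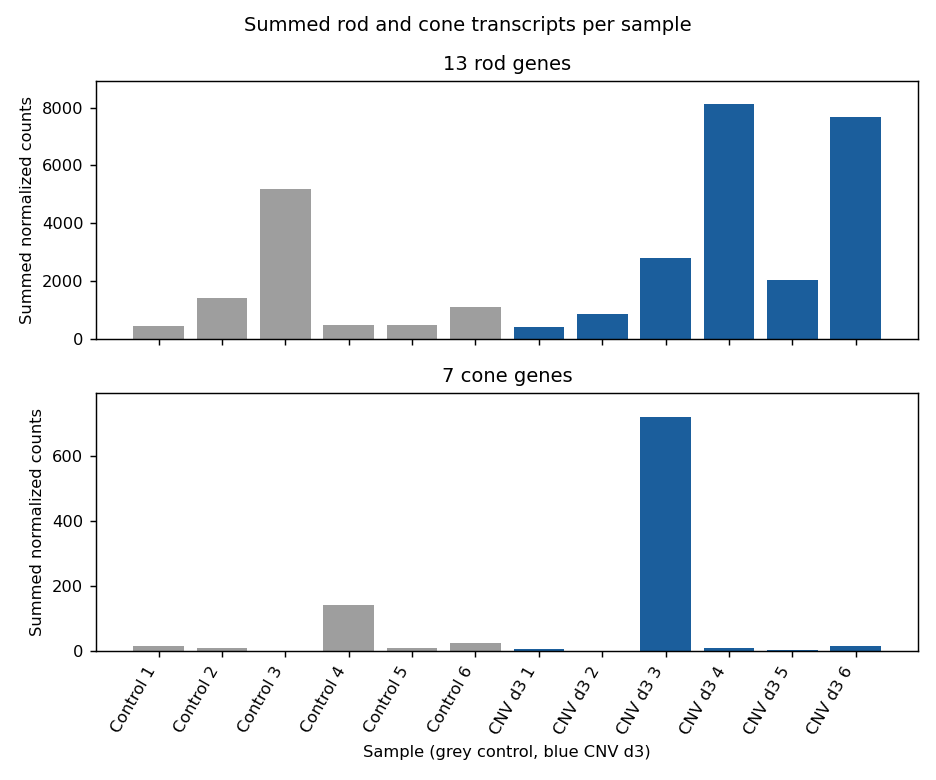
Summed normalized counts of the 13 rod genes (top) and of 7 cone genes (bottom, without *Gngt2* and *Gnb3*) in each of the 12 samples, with grey bars for control and blue bars for CNV d3. Rod transcripts peaked in control 3 (5186) and CNV d3 4 and 6 (8106 and 7687), and cone transcripts in CNV d3 3 (720.3).

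Cone transcripts took another course. The sums over the 7 genes used almost only by cones (leaving out *Gngt2* and *Gnb3*) were 17.2, 9.11, 0, 141, 10.04 and 25.8 normalized counts in control samples 1 to 6, and 5.91, 1.67, 720.3, 10.4, 3.20 and 15.0 in CNV d3 samples 1 to 6. CNV d3 3 alone held most of the cone signal of its group, and control 4 most of that of the control group. Control 3, the highest control sample for rods, had 0 reads on these 7 genes, which allows a summed level of up to 3.38 normalized counts at the floor of 3 reads. CNV d3 4, the highest sample for rods, had 12 reads on them. Over the 12 samples the mean log2 levels of the rod and the cone genes had a Pearson's r of 0.02 and a Spearman's rho of -0.11, a description over samples that differ in depth.

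The sequences before the starts of 3 rod genes and 1 cone gene are shown for the members whose levels rose together across samples and for one that did not. The 3 are the rod members of highest mean level that had an entry in the RefSeq promoter table for build GRCm38.p6 (*Sag*, *Pde6b* and *Gngt1*, with *Gnat1* named only), and *Opn1sw* was chosen after its values were seen. Each is the 250 bases before the start of the gene in RefSeq, 5′ to 3′ on the gene's strand. Capitals mark exact matches, on either strand, to TAATCC (the core bound by CRX-type homeodomain factors, GGATTA on the other strand), to TGCTGAC (the core of the NRL response element, GTCAGCA on the other strand) and to CAATTA (a homeodomain core, TAATTG on the other strand). No match overlapped another in these sequences. A match is a description of letters and not a site in use.
Sag: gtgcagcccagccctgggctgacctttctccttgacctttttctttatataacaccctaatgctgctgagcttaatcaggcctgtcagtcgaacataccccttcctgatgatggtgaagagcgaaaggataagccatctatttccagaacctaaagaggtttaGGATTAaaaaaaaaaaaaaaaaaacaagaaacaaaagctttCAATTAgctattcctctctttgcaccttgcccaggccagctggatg
Pde6b: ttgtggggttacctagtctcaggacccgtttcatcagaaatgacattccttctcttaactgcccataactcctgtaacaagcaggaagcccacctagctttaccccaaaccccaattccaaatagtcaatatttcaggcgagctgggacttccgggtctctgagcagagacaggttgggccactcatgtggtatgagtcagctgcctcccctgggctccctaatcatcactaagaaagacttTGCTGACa
Gngt1: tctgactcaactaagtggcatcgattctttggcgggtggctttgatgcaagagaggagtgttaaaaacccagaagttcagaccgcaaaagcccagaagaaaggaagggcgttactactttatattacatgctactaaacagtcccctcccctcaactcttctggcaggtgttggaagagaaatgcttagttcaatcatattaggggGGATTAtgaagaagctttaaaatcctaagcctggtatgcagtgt
Opn1sw: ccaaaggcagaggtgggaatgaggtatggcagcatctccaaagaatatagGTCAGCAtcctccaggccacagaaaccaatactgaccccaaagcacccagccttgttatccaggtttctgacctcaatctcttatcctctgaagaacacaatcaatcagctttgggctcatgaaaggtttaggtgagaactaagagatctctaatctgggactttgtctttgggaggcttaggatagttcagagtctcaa
The *Sag* stretch is chr1:87803430-87803679 (plus strand) and held TAATCC starting 87 bases and CAATTA starting 46 bases before the gene's start. That of *Pde6b* is chr5:108388123-108388372 (plus strand), with TGCTGAC starting 8 bases before the start. *Gngt1* is represented by chr6:3993758-3994007 (plus strand), with TAATCC starting 44 bases before the start. The *Opn1sw* stretch is chr6:29380514-29380763 (minus strand), with TGCTGAC starting 200 bases before the start. Gencode places the start of *Opn1sw* further upstream, at 29388468, so that the stretch lies inside its gene model, and that of *Gngt1* at 3993792, inside the stretch. Over the members, 25 had an entry, with 27 promoters. TAATCC was in 10 of these 27 (37.04%) and in 6.25% of all 32851 promoters, TGCTGAC in 2 (7.41%) against 3.81%, and CAATTA in 5 (18.5%) against 7.17%. TAATCC was in 4 of 8 rod promoters, in 4 of 9 of the genes of both cell types and in 1 of 5 cone promoters (*Gnat2*).

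Of the transducin genes, the rod subunits varied widely between samples, and the subunits *Gnb1* and *Gngt2* did not. *Gnat1*, the rod transducin alpha subunit (chr9:107674474-107679712, minus strand), was the rod gene with the most reads. Its normalized counts were 102, 572, 3064, 72.1, 145 and 326 in control and 96.0, 202, 956, 4018, 606 and 2780.4 in CNV d3. Control 3 and CNV d3 4 and 6 stood well above the other 9 samples, and the groups overlapped. The means were 713 ± 1166 (SD, n = 6) in control and 1443 ± 1594 in CNV d3, and limma, a linear model with a variance shared across genes, gave a log2 fold change of 1.28 (SE 0.98, adjusted p = 0.465 by limma). It was 0.78 without CNV d3 4 and 1.96 without control 3. All fold changes from limma are on the log2(normalized count + 1) scale, and adjusted p-values are by Benjamini-Hochberg over all 27299 genes. *Gngt1*, the rod transducin gamma subunit, had 94.5, 99.2, 508, 59.9, 27.1 and 83.4 normalized counts in control and 27.3, 86.1, 294, 501, 218 and 478 in CNV d3. The same 3 samples were its highest, with control 3 slightly above both of the CNV d3 samples.

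*Gnb1*, the beta subunit that rod transducin shares with many other G proteins, varied little between samples of a group. Its log2 level still had an r of 0.66 (rho 0.73) with the mean log2 level of the rod genes over the 12 samples. Within control r was 0.59 (rho 0.77), and within CNV d3 0.53 (rho 0.49). Its normalized counts were 3674, 4249, 4419, 4153, 2823 and 4848 in control and 6747, 8325, 8719.6, 7699.6, 7539 and 8599 in CNV d3. Every CNV d3 sample lay above every control sample, with means of 4028 ± 702 (SD, n = 6) in control and 7938 ± 753 in CNV d3. It was the 1 member past an adjusted p of 0.05 alone, with a log2 fold change of 0.99 (SE 0.12, adjusted p = 9.63e-05 by limma, and p = 0.00216 in a two-sided exact permutation test, the smallest that 6 samples against 6 allow). The change was below the fold of 1.5 on the log2 scale that a call required. For comparison, 4.64% of all genes had every CNV d3 sample above every control sample, and 2.83% every CNV d3 sample below.

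*Gngt2*, the cone transducin gamma subunit by name, was present at like levels in all 12 samples. Its values were 2215, 2233, 3211, 2881, 2418 and 2139 normalized counts in control and 2230.4, 2316, 2522, 1956, 2056 and 2119 in CNV d3. With means of 2516 ± 433 (SD, n = 6) in control and 2199.9 ± 202 in CNV d3, the groups overlapped and the log2 fold change was -0.18 (SE 0.12, adjusted p = 0.375 by limma). The gene shares exon bases with *Abi3*, and the default counting left out reads in exons of both, so its level is uncertain. It was highest in control 3, which had 0 reads on the 7 genes used almost only by cones. Whether the sorted cells made it was not tested. Its SD within groups was 0.192 on the log2 scale and that of *Gnb1* 0.218, near the median of 0.234 over the 3877 genes above 1000 normalized counts. The cone transducin alpha subunit *Gnat2* had 85.3 normalized counts in control 4, 41.2 in CNV d3 3 and at most 8.66 in any other sample. *Gnb3*, the cone beta subunit, which ON bipolar cells also use, ranged from 0 to 52.2 in control and from 4.43 to 98.4 in CNV d3, where sample 3 was again the highest.

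The rod phosphodiesterase hydrolyses cyclic GMP and consists of the catalytic subunits *Pde6a* and *Pde6b* and the inhibitory subunit *Pde6g*. *Pde6b* had normalized counts of 49.4, 170.1, 215, 0, 85.3 and 65.5 in control and 76.8, 66.9, 199, 738, 193 and 673 in CNV d3. Control 4 had no read, which allows 3.04 normalized counts, while CNV d3 4 and 6 stood apart above all other samples. The means were 97.6 ± 80.1 (SD, n = 6) in control and 324 ± 301 in CNV d3, with a log2 fold change of 2.20 (SE 1.1, adjusted p = 0.232 by limma) that was 1.09 without control 4. *Pde6g* had 37.6, 97.2, 472, 183, 4.02 and 19.9 normalized counts in control and 42.1, 49.3, 221, 591, 127 and 448 in CNV d3. Control 3 and CNV d3 4 and 6 were its 3 highest samples, as for *Gnat1*. For *Pde6a* the values were 0, 26.3, 41.7, 2.03, 0 and 75.5 normalized counts in control and 2.22, 10.03, 9.84, 123, 32.8 and 176 in CNV d3. It was highest in CNV d3 6 and 4, followed by control 6, and control 1 and 5 had no read. Of the cone subunits, *Pde6c* ranged from 0 to 10.04 in control and from 0 to 13.4 in CNV d3. *Pde6h* ranged from 0 to 31.5 and from 0 to 38.5, and it shares exon bases with *Arhgdib*, a gene of blood cells.

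The channel and the exchanger of the outer segment carry the light-sensitive current. *Cngb1*, the rod channel beta subunit, had 0, 4.05, 14.6, 0, 3.01 and 0 normalized counts in control and 0, 20.9, 61.7, 128, 31.2 and 163 in CNV d3. It was at or near the floor in all control samples but control 3, yet CNV d3 1 also had no read, so the groups overlapped. The means were 3.62 ± 5.68 (SD, n = 6) in control and 67.5 ± 64.5 in CNV d3, with a log2 fold change of 3.58 (SE 1.21, adjusted p = 0.0678 by limma), and edgeR and DESeq2 on the recovered reads called it higher. *Slc24a1*, the rod sodium, calcium and potassium exchanger, had 32.2, 224, 90.1, 5.07, 45.2 and 63.5 normalized counts in control and 16.3, 10.03, 114, 332, 183 and 135 in CNV d3. It was highest in CNV d3 4 and next in control 2, not in control 3. The alpha subunit of the rod channel, *Cnga1*, ranged from 0 to 41.7 in control and from 8.95 to 96.9 in CNV d3. The cone beta subunit *Cngb3* had 1 read, in control 2.

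Guanylate cyclase and its activators, which restore cyclic GMP, were found at low levels. *Guca1b*, a calcium-sensing activator of the cyclase, had 0, 5.06, 59.7, 0, 0 and 1.99 normalized counts in control and 2.96, 0.836, 19.7, 45.0, 6.41 and 48.2 in CNV d3. Control 3 and CNV d3 4 and 6 were its 3 highest samples. *Gucy2e*, the retinal guanylate cyclase, had 0 reads in all 6 control samples and 0, 0, 15.2, 21.6, 0 and 52.3 normalized counts in CNV d3 samples 1 to 6. Its unadjusted p in limma was 0.026 and its adjusted p = 0.129. No fold change is given, since a fit against a group at 0 reads depends on the pseudocount.

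Arrestin binds the phosphorylated opsin and stops the cascade. *Sag*, the rod arrestin (chr1:87803680-87845158, plus strand), was the second of the rod genes by reads, and it had 89.1, 179, 378, 27.4, 135 and 274 normalized counts in control and 114, 339, 764, 1035, 505 and 2134 in CNV d3. CNV d3 6 was the highest with 2134 normalized counts, control 4 was the lowest, and CNV d3 1 and 2 lay within the control range. The means were 180.4 ± 128 (SD, n = 6) in control and 815 ± 722 in CNV d3, with a log2 fold change of 2.05 (SE 0.68, adjusted p = 0.0608 by limma). The two-sided exact permutation test of this single gene, with no adjustment, gave p = 0.0281. edgeR and DESeq2 on the recovered reads called it higher, and so did limma without CNV d3 1, with a log2 fold change of 2.51.

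*Rcvrn*, the calcium sensor that holds back opsin kinase, and *Pdc*, phosducin, which binds the transducin beta and gamma subunits, are used by rods and cones. *Rcvrn* had 15.0, 75.9, 149.8, 50.7, 96.4 and 69.5 normalized counts in control and 8.13, 31.8, 166, 307, 80.1 and 297 in CNV d3. *Pdc* had 71.9, 96.2, 385, 20.3, 103 and 113 normalized counts in control and 39.9, 31.8, 166, 634, 161 and 667 in CNV d3. Both were highest in CNV d3 4 and 6, and control 3 was the highest control sample for both. The cone arrestin *Arr3* had no read in any control sample and 33.1 normalized counts in CNV d3 3, with at most 2.40 in the other 5 CNV d3 samples.

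The cone opsins were seen in few samples. *Opn1sw*, the short-wavelength opsin of mouse cones (chr6:29376671-29388468, minus strand), had 14.0, 0, 0, 18.3, 0 and 0 normalized counts in control and 0, 0, 500.2, 0, 0 and 9.97 in CNV d3. It was 500.2 normalized counts in CNV d3 3 and at most 18.3 anywhere else, with no read in 8 of the 12 samples. The log2 fold change of 0.71 (SE 1.49, adjusted p = 0.762 by limma) rested on that sample and was -0.67 without it. The gene shares exon bases with *Calu*. The middle-wavelength opsin *Opn1mw* had 94.0 normalized counts in CNV d3 3, 1.73 in CNV d3 4 and no read in the other 10 samples.

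Genes of outer segment structure and transport had their highest values largely in the same samples. *Prph2* and *Rom1* encode tetraspanins that shape the rim of the outer segment discs. *Prph2* had 101, 186, 627, 201, 59.2 and 151 normalized counts in control and 70.2, 196, 519.9, 1044, 198 and 1075 in CNV d3. Control 3 and CNV d3 3, 4 and 6 stood above the others, of which the highest had 201 normalized counts, with means of 221 ± 206 (SD, n = 6) in control and 517 ± 446 in CNV d3 and a log2 fold change of 1.03 (SE 0.67, adjusted p = 0.379 by limma). *Rom1* had 89.1, 63.8, 456, 178, 93.4 and 284 normalized counts in control and 59.1, 116, 235, 445, 155 and 473 in CNV d3. It had the smallest change of the rod and shared genes, with a log2 fold change of 0.35 (SE 0.56, adjusted p = 0.683 by limma), and control 3 was its second highest sample. Leaving out single samples moved this value between 0.09 and 0.69.

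*Rp1*, a microtubule protein of the axoneme, had 52.6, 415, 58.6, 0, 145 and 0 normalized counts in control and 5.91, 20.9, 217, 402, 127 and 605 in CNV d3. CNV d3 6 was the highest, but control 2 was the next, slightly above CNV d3 4, and control 4 and 6 had no read. *Reep6*, a membrane-shaping protein of rods, had 30.1, 0, 145, 108, 44.2 and 113 normalized counts in control and 11.1, 20.1, 69.8, 265, 41.7 and 249 in CNV d3. CNV d3 4 and 6 stood above all other samples, and control 2 had no read. *Aipl1*, a chaperone of the phosphodiesterase, had 0, 101, 60.8, 0, 48.2 and 0 normalized counts in control and 0, 13.4, 88.6, 168, 26.4 and 241 in CNV d3. It followed the same course in CNV d3, while 3 control samples and CNV d3 1 had no read.

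*Tulp1*, which takes part in transport to the outer segment, had 7.51, 28.3, 146, 0, 2.01 and 0 normalized counts in control and 10.3, 31.8, 71.6, 128, 34.4 and 130.4 in CNV d3. Control 3 was the highest sample of all, and the other control samples lay at or under 28.3. The means were 30.7 ± 57.7 (SD, n = 6) in control and 67.8 ± 51.5 in CNV d3, with a log2 fold change of 2.86 (SE 1.19, adjusted p = 0.14 by limma), and it was called higher without control 3, with 3.74. It was 1.15 by edgeR (adjusted p = 0.479) and 1.14 by DESeq2 (adjusted p = 0.509). *Unc119*, a lipid-binding carrier of transducin that other cells also use, had 18.3, 79.0, 238, 97.4, 95.4 and 0 normalized counts in control and 117, 161, 352, 363, 121 and 532 in CNV d3. CNV d3 3, 4 and 6 were the highest, control 3 with 238 normalized counts lay above the other CNV d3 samples, and the log2 fold change was 2.58 (SE 1.03, adjusted p = 0.126 by limma). Without control 6, which had no read, it was 1.52, and by edgeR and DESeq2 it was 1.64.

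Retinoid handling clears the bleached chromophore. *Abca4*, the flippase of the disc rim, had 5.37, 69.9, 0, 0, 0 and 167 normalized counts in control and 24.4, 0, 149, 379, 28.0 and 199 in CNV d3. CNV d3 4 was the highest, followed by CNV d3 6 and control 6, and 3 control samples and CNV d3 2 had no read. Its log2 fold change was 2.79 (SE 1.63, adjusted p = 0.32 by limma), and 1.73 by edgeR. *Rdh12*, a retinol dehydrogenase of the inner segment, had 36.5, 58.7, 152, 34.5, 0 and 73.5 normalized counts in control and 18.5, 99.5, 92.2, 112, 92.9 and 199 in CNV d3. CNV d3 6 was the highest and control 3 the next, and the groups overlapped.

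The transcription factors of the rod programme were also present. *Nr2e3*, a nuclear receptor that keeps cone genes off in rods, had 0, 22.3, 137, 0, 0 and 0 normalized counts in control and 18.5, 13.4, 53.7, 149.7, 59.3 and 234 in CNV d3. It had no read in 4 of 6 control samples and reads in all CNV d3 samples, while control 3 with 137 normalized counts lay within the CNV d3 range. The means were 26.6 ± 55.0 (SD, n = 6) in control and 88.1 ± 86.7 in CNV d3, with a log2 fold change of 3.88 (SE 1.30, adjusted p = 0.065 by limma), and it was called higher without control 3, with 4.91. On the recovered reads the log2 fold change was 1.73 by edgeR (adjusted p = 0.361) and 1.73 by DESeq2 (adjusted p = 0.406). It shares exon bases with *Gm15507*. *Nrl*, the leucine zipper factor that commits a cell to the rod fate, ranged from 0 to 33.8 in control and from 0 to 106 in CNV d3, and control 3 was its highest control sample and CNV d3 6 and 4 were its highest CNV d3 samples. The log2 fold change of *Nrl* was 2.47 (SE 1.31, adjusted p = 0.268 by limma).

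*Crx*, the homeobox factor of rods and cones, had 0, 76.9, 296, 96.4, 0 and 81.4 normalized counts in control and 23.6, 30.1, 113, 113, 49.7 and 136 in CNV d3. Control 3 was the highest of all 12 samples, and all CNV d3 samples had reads while control 1 and 5 had none. *Nr1d1*, a clock nuclear receptor found in many cells, had 60.1, 264, 0, 230.4, 58.2 and 298 normalized counts in control and 39.9, 59.4, 63.5, 45.0, 86.5 and 26.6 in CNV d3. It ran against the others: control 3 had no read, and control 2, 4 and 6 lay above every CNV d3 sample. The log2 fold change was -0.32 (SE 1.11, adjusted p = 0.861 by limma) and turned positive without control 2, 4 or 6, while it was -1.52 without control 3 and -1.49 by edgeR. Part of its exons is shared with *Thra*.

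**Figure D2:**
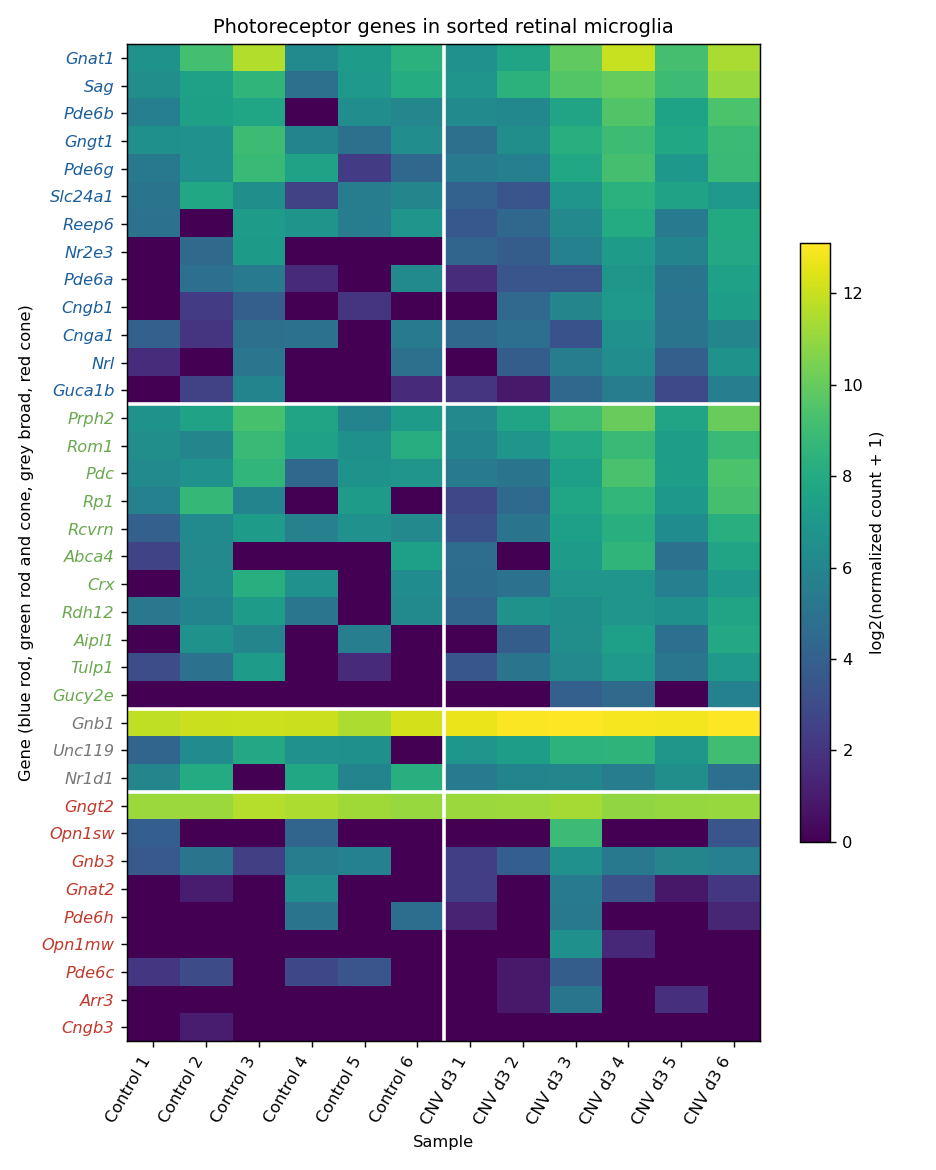
Level of the 36 members (rows, by class and then by mean level) in the 12 samples (columns, control left of the white line), as log2(normalized count + 1), with 0 in dark purple. Rod genes and genes of both cell types are bright together in control 3 and CNV d3 4 and 6, and the cone genes *Opn1sw* and *Opn1mw* are bright in CNV d3 3 (500.2 and 94.0 normalized counts).

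Per length, the order of the members changed. Normalized counts per kilobase of exon, averaged over the 12 samples, were highest for the broadly used *Gnb1* (1402) and for *Gngt2* (1256), followed by the rod gene *Gnat1* (356), *Rom1* (145) and *Prph2* (123). *Sag* had 55.9, below *Rcvrn* (108), *Pde6g* (82.4), *Pdc* (61.9) and *Gngt1* (58.7). The SDs between samples exceed most of these steps, so neighbours in this order are not separated.

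As a comparison of groups, the members gave few calls. A call was a log2 fold change above 1.5 in size with an adjusted p under 0.05, as in the methods of the study. By limma, 0 of the 36 members were called higher and 0 lower, where 3.91% of all genes were called higher and 1.07% lower. With the adjusted p alone, 1 member was higher (*Gnb1*) and 0 were lower, against 8.29% and 4.57% of all genes. At an unadjusted p under 0.05, 7 members were higher (*Sag*, *Gnb1*, *Cngb1*, *Nr2e3*, *Gucy2e*, *Unc119* and *Tulp1*) and 0 lower, against 16.3% and 8.9% of all genes. On the recovered reads, edgeR called 3 of 36 higher (*Sag*, *Cngb1* and *Gucy2e*) where it called 3.07% of all genes, and DESeq2 2 (*Sag* and *Cngb1*) of the 31 to which it gave an adjusted p, where it called 5.28% of such genes.

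The direction was nonetheless shared by the rod genes. All 13 rod genes had a positive log2 fold change, from 0.65 to 3.88 with a median of 1.67, where 59.3% of all genes were positive with a median of 0.15. Genes of both cell types were positive in 11 of 11 (median 1.46), and cone genes in 5 of 9 (median 0.71). With genes that had no read in a group set to the floor of 3 reads per library, these medians were 1.67, 1.42 and 0, and that of all genes 0. Since the genes vary together across samples, the 13 directions are not separate observations. The mean log2 level of the rod genes was 4.42 ± 1.51 (SD, n = 6) in control and 6.29 ± 1.72 in CNV d3, a difference of 1.87 that is close to the SD within either group and is given with no test. Without control 3 and CNV d3 4 and 6, the difference was 1.48.

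**Figure D3:**
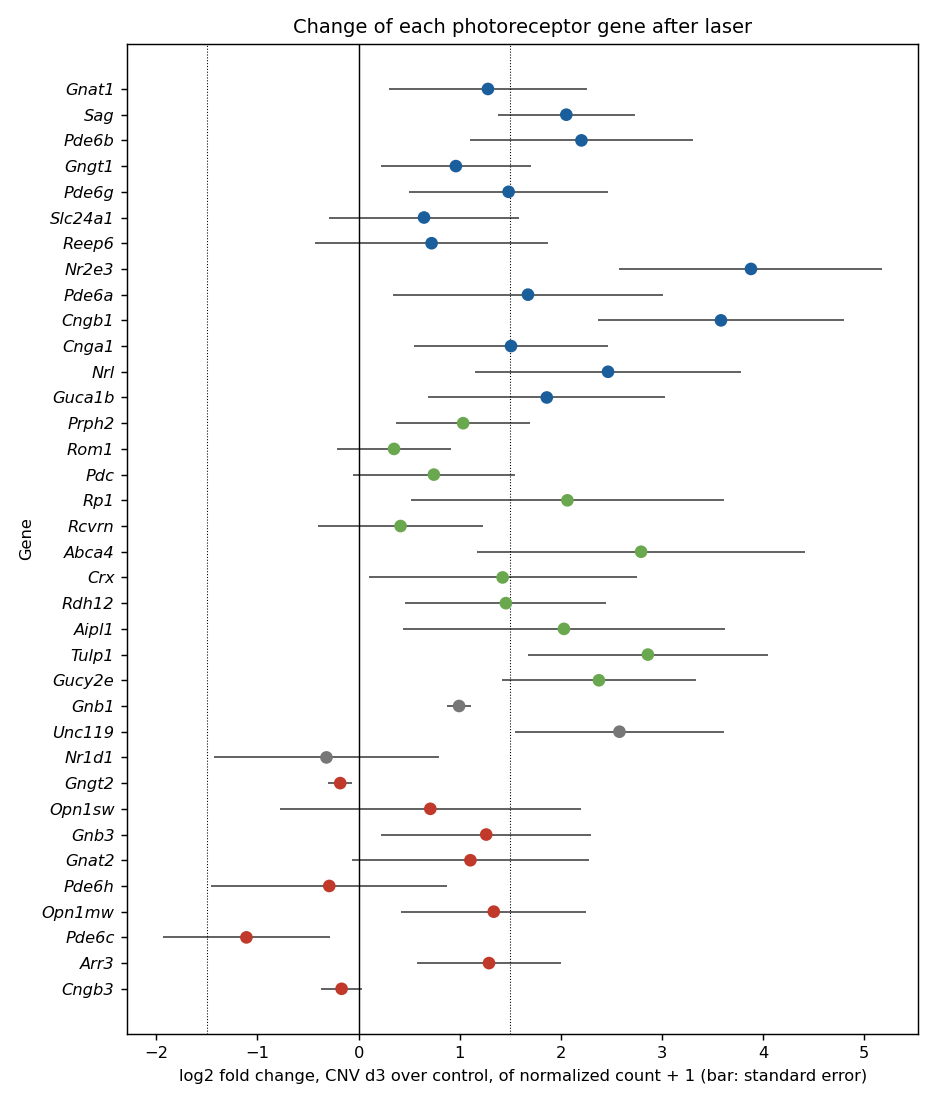
Log2 fold change of each member, CNV d3 over control, on the log2(normalized count + 1) scale from limma, with bars for the standard error and dotted lines at the fold required for a call (1.5 in either direction). All 13 rod genes (blue) lie right of 0 with wide bars, while *Gnb1* at 0.99 has a narrow bar. Values of *Gucy2e*, *Opn1mw*, *Arr3* and *Cngb3*, which had no read in one group, depend on the pseudocount.

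The levels of the rod genes moved together from sample to sample. For each gene, its log2 level was set against the mean log2 level of the other rod genes over the 12 samples. The median Pearson's r was 0.84 for the 13 rod genes (12 of them over 0.5) and 0.75 for the 11 genes of both cell types (11 over 0.5). For the 13584 other genes with a mean of at least 10 normalized counts, the median was 0.03 and 13.02% were over 0.5. These correlations are descriptions: the points share library, depth and preparation. *Gnat1* followed the other rod genes most closely (r = 0.95, rho = 0.91, and r = 0.92 without the 2 samples farthest from the median), then *Guca1b* (r = 0.93, rho = 0.91, and 0.89) and *Gngt1* (r = 0.92, rho = 0.87, and 0.89). *Reep6* followed them least (r = 0.41, rho = 0.50, and 0.10 without those 2 samples), and the relation for *Cnga1* likewise rested on 2 samples (r = 0.52, rho = 0.50, and 0.26).

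Within each group the relation was also present, and it was weaker in control. Among the 6 CNV d3 samples the median r was 0.94 for rod genes and 0.96 for genes of both cell types. Among the 6 control samples it was 0.73 and 0.67. In control, 9 of 13 rod genes and 7 of 10 genes of both cell types were over 0.5, against 18.6% of other genes. In CNV d3 it was 13 of 13 and 11 of 11, against 17.1%. Spearman's rho in control went from 0.03 to 0.88 for rod genes and from 0.14 to 0.94 for genes of both cell types. Control 3 had a mean log2 rod level of 7.06, against 3.10 to 4.94 in the other control samples. Its part in the control values was not tested. In pairs of rod genes, r was positive in 78 of 78 pairs over the CNV d3 samples (median 0.88) and in 64 of 78 over the control samples (median 0.56). *Rp1* and *Abca4* followed the rod level in CNV d3 (r = 0.98 and 0.74) and hardly in control (r = 0.14 and 0.13). *Reep6* had r = 0.99 in CNV d3 and -0.02 in control. Low reads in control, where between 8 and 13 of the 13 rod genes had any read against 11 to 13 in CNV d3, move with this difference, and their part in it was not tested.

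**Figure D4:**
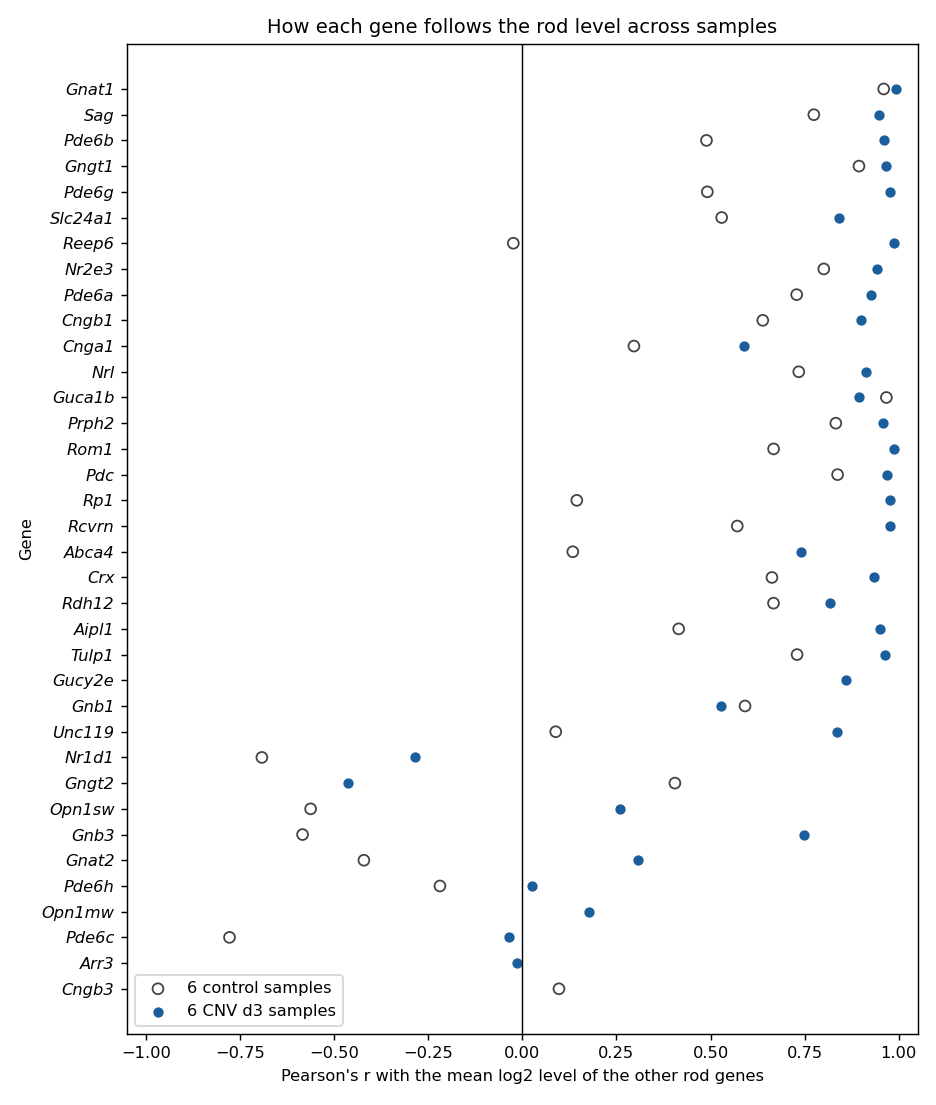
Pearson's r of each member's log2 level with the mean log2 level of the other rod genes, over the 6 control samples (open circles) and over the 6 CNV d3 samples (filled). Rod genes and genes of both cell types lie mostly to the right, with medians of 0.94 and 0.96 in CNV d3 and 0.73 and 0.67 in control. Cone genes have a median of 0.10 in CNV d3, with *Gnb3* at 0.75, and of -0.42 in control. A gene with no read in a group has no circle for it.

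As a class, the cone genes did not follow the rod level. Their median r with it was 0.05 over the 12 samples, with 0 of 9 over 0.5. It was -0.42 over the control samples and 0.10 over the CNV d3 samples. Within CNV d3, 1 of 8 was over 0.5, *Gnb3* with 0.75 (rho 0.49), which had -0.58 in control. Pairs of a rod and a cone gene had a median r of -0.35 in control, with 21 of 65 positive. Between 0 and 4 of the 7 cone genes had any read in a control sample, so these pairs rest on few samples with reads. Among themselves, the 7 cone genes had a median r of 0.43 over 21 pairs, and within CNV d3, where 6 of them had reads, 0.88 with 15 of 15 pairs positive, which rests on CNV d3 3. That sample was the highest of all 12 for 5 of the 7 cone genes and for 11.3% of the 13614 genes with a mean of at least 10. Of the 7, only *Opn1sw* (45.2) and *Gnat2* (12.1) reach that mean, so these shares are of genes at unlike levels. For rods, CNV d3 4 or 6 was the highest sample in 11 of 13 rod genes and in 9 of 11 genes of both cell types, against 12.5% of those 13614 genes. Among control samples, control 3 was the highest in 10 of 13 and in 7 of 11, against 22.2%.

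Rod genes did not keep 1 fixed ratio from sample to sample. *Gnat1* had 1.07 to 8.10 times the normalized counts of *Sag* in control and 0.60 to 3.88 times in CNV d3. The ratio was highest in control 3 (8.10) and CNV d3 4 (3.88), while CNV d3 6, with almost the same rod sum as CNV d3 4, had 1.30. *Gnat1* made up between 14.9% and 59.1% of the rod sum in control and between 22.5% and 49.6% in CNV d3.

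The spread within groups was large for the level of these genes. Among genes with a mean of 50 to 1000 normalized counts, the SD within groups on the log2 scale had a median of 2.00 for 7 rod genes and 1.97 for 9 genes of both cell types, and of 0.49 over 6879 genes. Against depth, the rod level had an r of 0.17 (rho 0.17) with the reads on genes over the 12 samples, of -0.32 (rho -0.83) within control and of -0.64 (rho -0.60) within CNV d3. With the number of genes that had reads, r was 0.52 (rho 0.56).

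Other photoreceptor genes, from a list of 34 that holds no member, were counted beside them. By limma, 4 of 34 were called higher and 0 lower, where 3.91% of all genes were called higher. These were *Rgs9*, which speeds the turn-off of transducin, *Rp1l1*, an axoneme protein, *Neurod1*, a neuronal transcription factor, and *Ppef2*, a phosphatase. *Rp1l1* and *Ppef2* had no read in any control sample, and *Rgs9* had at most 2.15 normalized counts in control. A fit against a group at or near 0 reads depends on the pseudocount, and the control samples had fewer reads on genes. At an unadjusted p under 0.05, 18 of the 34 genes were higher and 0 lower, where 16.3% of all genes were higher. The median log2 fold change was 1.98 with 30 of 34 positive, and 1.64 with genes at no read set to the floor. *Neurod1* was 0 to 29.0 normalized counts in control and 31.0 to 207 in CNV d3. It was the 1 gene of the 34 with every CNV d3 sample above every control sample, against 4.64% of all genes. The list had 0 with every CNV d3 sample below, against 2.83%. *Rbp3*, the retinoid carrier of the space around the outer segments, was 0 to 295 in control and 123 to 1211 in CNV d3, with its highest value in CNV d3 4 (limma, adjusted p = 0.0631). The 25 genes of the list with a mean of at least 10 had a median r of 0.62 with the rod level over the 12 samples. Within CNV d3 it was 0.83, with 20 of 25 over 0.5 (80%), against 17.1% of all other genes. Within control it was only 0.16, with 6 of 23 over 0.5 (26.1%), against 18.6%.

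Markers of other retinal cells moved with the rod level to different degrees. The mean log2 level of 12 amacrine and horizontal cell genes had an r of 0.78 with it (rho 0.84), with sums of 162 to 479 in control and 152 to 521 in CNV d3, and the median of 7 of the 12 was under 10 normalized counts, *Chat* and *Lhx1* among them. For 12 bipolar cell genes r was 0.67 (rho 0.69), with sums of 379 to 947 and 261 to 501, and 11 of 12 had a median under 10, *Grm6* and *Trpm1* among them. *Prkca* made up most of these sums in every sample. For 12 ganglion cell genes r was 0.55 (rho 0.61), with sums of 820.1 to 1418 and 626 to 1329, of which *Rbpms* was the largest part, and 7 of 12 under 10. For 12 Mueller glia genes it was 0.30 (rho 0.29), with sums of 6987 to 9839 and 5248 to 7747, nearly all of it *Glul* and *Slc1a3*, and 6 of 12 had a median under 10. Pigment epithelium genes had an r of 0.11 (rho 0.12), with sums of 2.15 to 263 and 73.9 to 288, of which *Best1* was the largest part. Of these 12 genes, 10 were under a median of 10, among them 3 with no read or no row. For endothelial cells and pericytes r was 0.43 (rho 0.37, sums of 529 to 991 and 696 to 1236), with *Kdr* the largest part. In that list, 8 of 12 genes were under a median of 10 or had no read or no row. For lens r was 0.51 (rho 0.60, sums of 1499 to 2095 and 1941 to 2637). Nearly all of the lens sum was *Crybb1* and *Cryba4*, with 10 of 12 genes under a median of 10 or with no row. Which cells made *Crybb1* and *Cryba4* was not tested. For erythrocytes r was 0.08 (rho 0.27, sums of 0 to 15.2 and 0.831 to 10.3). The part of these lists in the rod level was not tested. The microglia list ran the other way over the 12 samples, with an r of -0.60 (rho -0.49). Its sums were 1459970 to 1625790 in control and 791411 to 1182820 in CNV d3, where the mean rod level was higher. That r thus includes the difference between the groups, and no r within a group is given for these lists.

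The genes other than members whose log2 level was most like the rod level were named by rank, of which 8 are reported. *Nup98*, a nuclear pore protein, had r = 0.91 over the 12 samples, *1700001G11Rik* 0.89, *Gm49730* 0.88, and *Kcnv2*, a potassium channel subunit of photoreceptors that is also in the list of 34, 0.87. *Pitpnm3* (0.86), *Gm11478* (0.86), *Canx*, a chaperone of the endoplasmic reticulum (0.85), and *Dglucy* (0.85) followed. *Kcnv2* had mean normalized counts of 0.938 in control and 45.6 in CNV d3, while *Nup98* (1543 and 1851) and *Canx* (20330 and 22695) were high in both groups.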

How the data were processed

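RNA of sorted retinal microglia was measured by RNA-seq in 6 control and 6 CNV d3 samples. The authors made full-length cDNA by template switching and PCR, sequenced single reads, mapped them with STAR 2.7.2b to GRCm38 with Gencode M25, merged 2 BAM files per sample, counted reads per gene with featureCounts 1.6.4 and removed genes with 0 reads. The deposited signal is the read count divided by the size factor of the sample from DESeq2 1.22.2. Default counting ignores strand and leaves out reads in exons of more than 1 gene. The authors' group means, log2 fold changes and adjusted p-values were deposited too and were not used.

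The members, their classes and all lists were chosen with earlier results of these data known. Groups and replicate numbers came from the labels. The values are not counts, so the groups were compared with limma 3.58.1 (R 4.3.3, variance trend, no further filter) on log2(value + 1) over all 27299 genes. Dividing each value by the value of 1 read gave whole numbers (within 0.001) for 100% of the entries, and edgeR 4.0.16 and DESeq2 1.42.0 were run on these recovered reads as alternatives. For 2 single genes, a two-sided exact permutation test went through the 924 labelings. The fits were tested on simulated data. Depth was 10963178 to 29523018 reads per sample, and 3 reads were taken as the floor.

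Every sample's value was given for members with a mean of at least 50 normalized counts in either group, members past the call threshold and members that lead their role. Genes outside the members were named only from the lists or as 1 of the 10 genes most like the mean log2 rod level. Of these 10, 2 are not reported here. *Rbp3*, *Neurod1* and the low markers were chosen from the lists after their values were seen. Lengths and positions came from Gencode M21 on GRCm38, and promoters from RefSeq on GRCm38.p6. The alternatives were other scalings, pseudocounts of 0.5 and 4, a filter of 10 normalized counts in 6 samples, no variance trend, the replicate block, the adjusted p alone and each sample left out. Leaving out control 3 and CNV d3 4 and 6 together was added after the data were seen.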

Additional observations from a re-analysis of the deposited data

Results flagged for a closer look

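Both groups of 6 samples were checked for a sample far from the others, for each member and for the mean rod level, leaving out groups with equal values. Of these 70 checks, 11 passed Dixon's criterion at the 95% level, taken on log2(normalized count + 1). Chance gives about 1 in 20 for values that vary smoothly, and that rate does not hold for groups with many samples at 0, where 1 read alone can pass it. In 5 of them a lone sample was low. *Pde6b* had 0 in control 4, *Nr1d1* 0 in control 3, *Rdh12* 0 in control 5, *Rdh12* 18.5 normalized counts in CNV d3 1 and *Reep6* 0 in control 2. In the other 6 a lone sample was high. CNV d3 3 was far above its group for 4 cone genes, with 94.0 for *Opn1mw*, 33.1 for *Arr3*, 13.4 for *Pde6c* and 38.5 for *Pde6h*. *Gnat2*, also a cone gene, had 85.3 in control 4, and *Cngb3* had 1.01, which is 1 read, in control 2.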

How the results depend on the processing

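The number of members called higher was 0 of 36 by limma (3.91% of all genes), 3 of 36 with edgeR (3.07%), 2 of 31 with DESeq2 (5.28%), 3 of the 27 members left by the filter on low values (5.76%, *Sag*, *Cngb1* and *Nr2e3*) and 1 with the adjusted p alone (*Gnb1*), and with the replicate block it was 1 of 36 (*Sag*, where 3.37% of all genes were called). Omitting 1 sample at a time gave 0 to 2, with 2 without control 3 (*Nr2e3* and *Tulp1*, 3.69% of all genes) and 2 without CNV d3 1 (*Sag* and *Cngb1*, 3.81%). The number called lower was 0 in each of these runs. Same-numbered samples did not deviate together over all genes (r from -0.02 to 0.05 over 12753 genes). This does not show whether they were prepared together, and the main fit took the samples as unpaired. The difference of the mean rod level went from 1.501 to 2.40 over the same omissions. *Nr1d1* turned positive without control 2, 4 or 6 (0.09, 0.05 and 0.13) and was lowest at -1.52 without control 3, and *Opn1sw* turned negative without CNV d3 3 (-0.67) and was highest at 1.29 without control 4. Of 333 alternatives for 16 members named with their test, 316 kept their direction and their side of an adjusted p of 0.05, with no fold required. Another 13 newly passed that adjusted p, and 4 reversed direction. Over all genes, calls went from 1068 higher and 293 lower to 908 and 572 with DESeq2, whose median log2 fold change was -0.01 against 0.15, and to 616 and 247 without control 3 and CNV d3 4 and 6. Fewer genes tested or fewer samples are part of the filter and of each omission, and the cause of the other differences was not tested. Between 0 and 4 of the 7 cone genes had any read in a control sample and between 2 and 6 in a CNV d3 sample, and a level under 3 reads was not detectable.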
